A study of Mus musculus with 24 samples.

Results

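Messenger RNA of 10 genes of the cAMP-dependent kinase pathway was followed across 4 kinds of cultured mouse T cell. The genes were the catalytic subunit genes Prkaca and Prkacb, the regulatory subunit genes Prkar1a and Prkar2a, the anchor genes Akap1, Akap8 and Akap13, and the transcription factor genes Creb1, Crem and Atf1 of the CREB family. They were taken by symbol from the 56748 genes of the count table. All 10 were found once, and all 10 passed the filter on low counts, as did 15885 genes in all.

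Cyclic AMP is made when a receptor coupled to a stimulatory G protein is engaged, and receptors coupled to inhibitory G proteins, among them the kappa opioid receptor, lower it. Protein kinase A is held inactive as a tetramer of a pair of regulatory and a pair of catalytic subunits; cAMP binds the regulatory subunits and releases the catalytic ones. A-kinase anchoring proteins hold the kinase at particular places in the cell, and the freed kinase phosphorylates CREB family factors, which bind cAMP response elements (CREs) in DNA. In T cells, raised cAMP is known to dampen signalling from the antigen receptor, and Crem is itself a CREB target with a short repressor form made from an internal promoter.

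The study asked what agonists of the kappa opioid receptor do to T cells. Wild-type mouse T cells were polarised in culture to regulatory T cells (Treg), Th17 cells or Th1 cells, or were activated CD8 T cells. Each kind was given 0.1 µM of 1 of 5 compounds described as agonists, or DMSO as vehicle, for up to 5 days. The compounds are called WMS-200 (in full WMS-200-01), WMS-64 (in full WMS-64-07), WMS-75 (in full WMS-75-13), WMS-76 (in full WMS-76-04A) and WMS-83 (in full WMS-83-02). These full names are the treatment protocol's. In the titles of libraries other than Th1, the last part of the name differs for every compound except WMS-76. Each of the 24 combinations has 1 poly(A)-selected bulk library, so there are 6 libraries per cell type and 4 per treatment, and no combination is repeated. Column names carry a WT number whose meaning the labels do not give. All Th1 libraries carry number 4, which no other library carries, and all CD8 libraries carry number 2. Cell type and WT number therefore cannot be told apart in any comparison with Th1. Of the Treg libraries, WMS-200 and DMSO carry number 3 and the other 4 agonists number 2. Of the Th17 libraries, WMS-83 carries number 3, DMSO number 2 and the other 4 agonists number 1. Nothing in the labels says that libraries came from separate animals, so p-values measure the spread between these libraries only. One Th1 library with WMS-83 has a title naming Th17 cells, whereas its other labels and its column name say Th1, and it is taken as Th1.

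The libraries hold between 15188284 and 21946887 assigned counts. Foxp3 averaged 282 CPM (counts relative to the TMM-scaled library total) in Treg, against 34.0 in Th17, 3.73 in CD8 and 7.23 in Th1 libraries. Of 5 markers listed for each cell type, 4 of the Treg, 3 of the Th17, 5 of the CD8 and 0 of the Th1 markers had their highest mean in the cell type they mark. Il2ra was lowest in Treg, Ccr6 was higher in Treg than in Th17 (57.1 and 31.6 CPM), and Il23r was lower in Th17 (2.56 CPM) than in CD8 or Th1. The Th1 markers, Ifng and Tbx21 among them, summed to 1161 CPM in Th1 libraries and 2004 CPM in CD8 libraries. Of these sums, Ifng alone was 592 CPM in Th1 and 1369 CPM in CD8. Cxcr3, also a Th1 marker, was lowest in Th1 (16.7 CPM) and highest in Treg (29.9 CPM). The CD8 markers summed to 302 CPM in Th17, 2703 CPM in CD8 and 242 CPM in Th1 libraries. Summed levels of the 6 B cell markers stayed between 2.29 and 11.9 CPM in every library, and those of the 6 myeloid markers between 9.06 and 25.5 CPM. The Treg libraries stood apart in composition: ribosomal protein genes took 2.16 ± 0.38% of their counts, against 10.5 ± 1.07% in Th17, 9.73 ± 0.33% in CD8 and 10.9 ± 0.45% in Th1 libraries (SD, n = 6 each). Fold changes of Treg over the other cell types also ran with gene length, with rank correlations across 11483 genes of 0.289 against Th17, 0.317 against CD8 and 0.325 against Th1. Where offsets for gene length changed the call or the sign of one of the 10 genes in Treg, or moved it by over 1.5 times, both values are therefore given. In bulk libraries, fewer cells of a type and less RNA per cell cannot be told apart.

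Every one of the 10 genes differed among the 4 cell types (edgeR quasi-likelihood F-test, Benjamini-Hochberg adjusted over all genes tested), beside 87.4% of all genes tested. The sizes were unequal. The highest cell type mean was 7.82 times the lowest for Crem, 5.24 times for Akap13 and 2.82 times for Prkar2a, and between 1.11 times (Creb1) and 1.75 times (Prkar1a) for the other 7 genes. In Treg over Th17, 8 of the 10 were called (background 74.9% of all genes), 3 higher (38.3%) and 5 lower (36.5%). In Treg over CD8, 7 were called (78%), 2 higher (40.2%) and 5 lower (37.8%). In Treg over Th1, 9 were called (77.5%), 3 higher (40.1%) and 6 lower (37.3%). In Th17 over CD8, 5 were called (47.1%), 3 higher (22.8%) and 2 lower (24.3%). In Th17 over Th1, 5 were called (47.3%), 3 higher (23.2%) and 2 lower (24.1%). In CD8 over Th1, 3 were called (16%), 2 higher (8.69%) and 1 lower (7.26%). Shares of this size over 10 genes are no result about the group, and the values that follow are those of single genes.

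**Figure D1:**
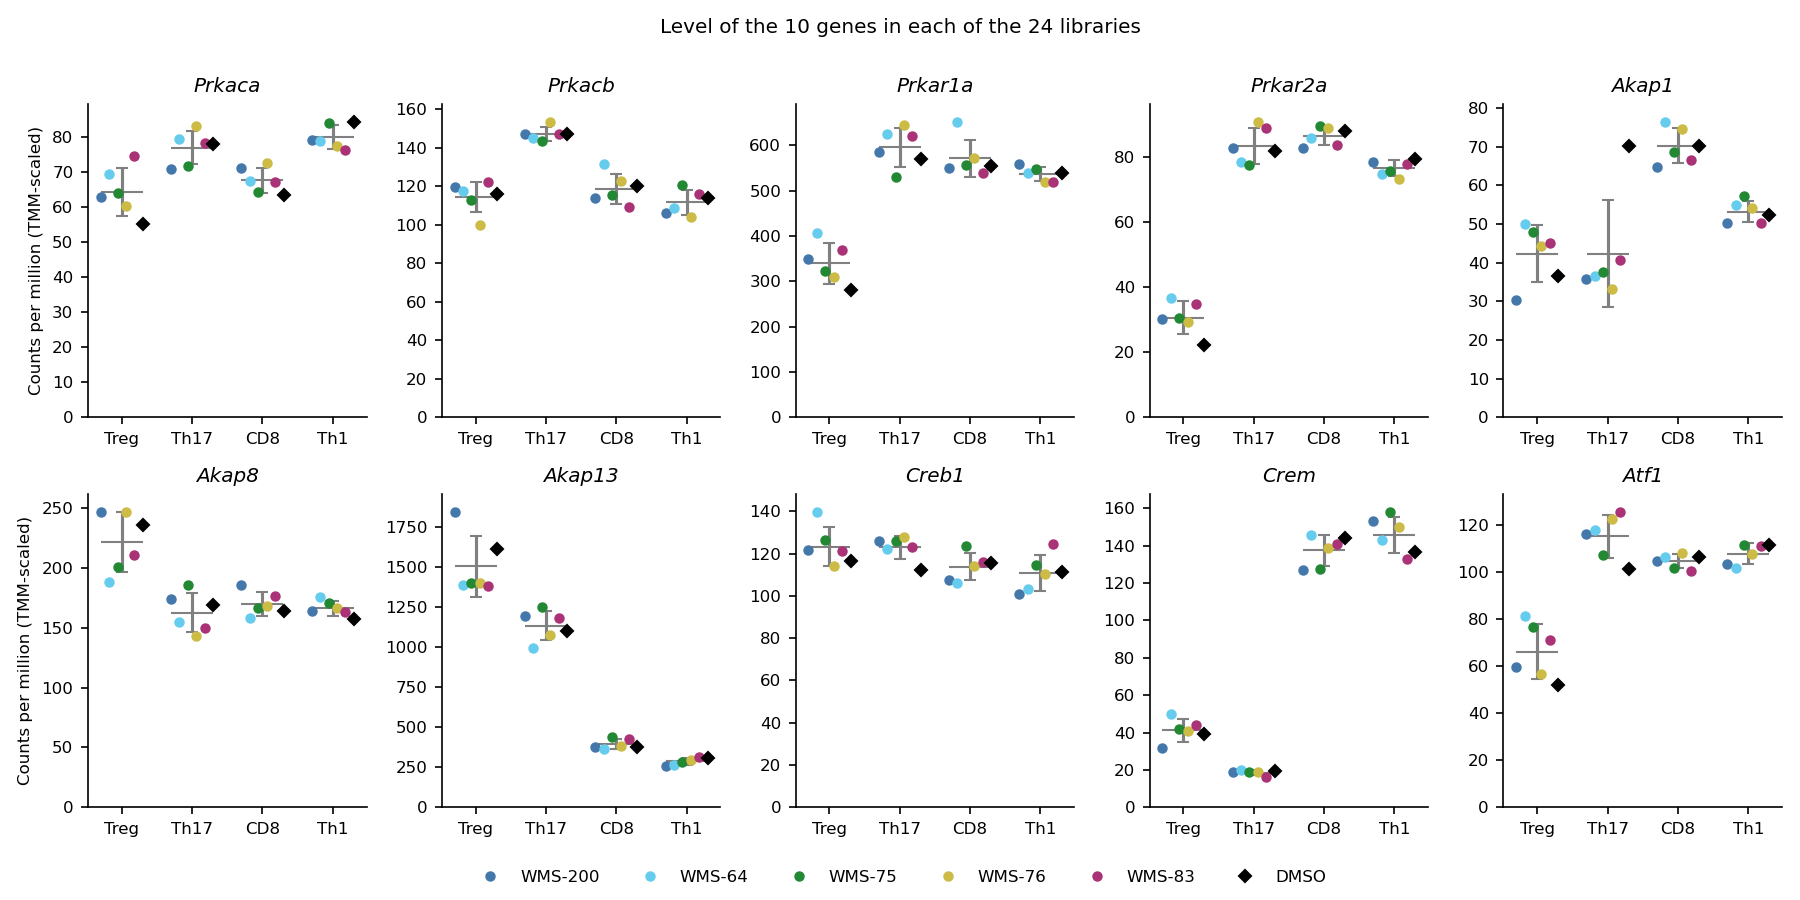
Level of each of the 10 genes in each library, in TMM-scaled CPM on axes that start at 0; circles are the 5 agonists, black diamonds are DMSO, and grey bars are the mean and SD of the 6 libraries of a cell type. The 4 cell types occupy separate ranges for Akap13 (Treg over Th17 is not called with gene length offsets), Crem is at 16.1 to 19.9 CPM in Th17 libraries, and Prkar2a is at 22.2 to 36.9 CPM in Treg libraries.

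**Figure D2:**
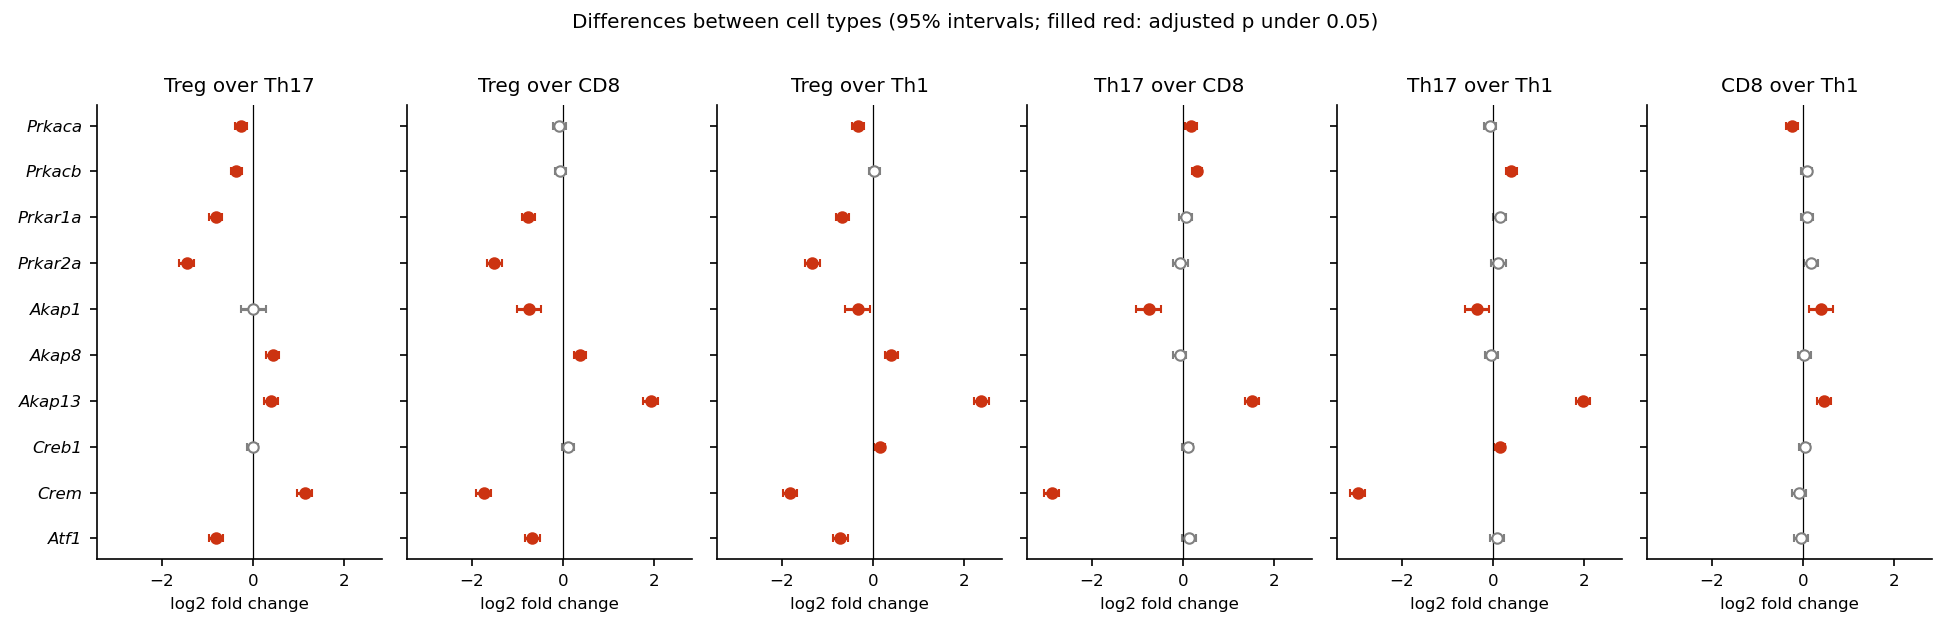
Log2 fold change of each gene for the 6 pairs of cell types, first-named over second-named, with 95% intervals; filled red points passed an adjusted p of 0.05. Crem in Th17 over Th1 lies lowest at -2.97 and Akap13 in Treg over Th1 highest at 2.39.

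The catalytic subunits differed little. Prkaca, which encodes the alpha catalytic subunit, had a lowest, median and highest value of 55.2, 63.6 and 74.7 CPM in Treg libraries, 71.0, 78.3 and 83.1 in Th17, 63.6, 67.4 and 72.6 in CD8, and 76.3, 79.1 and 84.5 in Th1. The Treg and Th1 ranges do not overlap, whereas the Treg and CD8 ranges do. The log2 fold change was -0.32 ± 0.07 (SE) for Treg over Th1 (adjusted p = 0.000103) and -0.26 ± 0.07 for Treg over Th17 (adjusted p = 0.00101). With gene length offsets both were near zero, at -0.009 and -0.007, and Treg over CD8 was 0.25 (adjusted p = 0.000333) in place of -0.07 (adjusted p = 0.307). Prkaca is the shortest of the 10 genes in the table, at 2488 bases. Outside Treg, CD8 over Th1 was -0.24 ± 0.07 (adjusted p = 0.0104). It was called under 7 of 8 alternatives and in 24 of 24 fits with a library left out. Th17 over CD8 was 0.18 ± 0.07 (adjusted p = 0.0230), called under 8 of 9 alternatives and in 18 of 24 such fits. Th17 over Th1 was -0.06 (adjusted p = 0.493).

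Prkacb, the gene of the beta catalytic subunit, stood out in Th17 cells. Its lowest, median and highest values were 99.7, 117 and 122 CPM in Treg libraries, 143, 147 and 154 in Th17, 109, 118 and 131 in CD8, and 104, 111 and 121 in Th1. All 6 Th17 libraries lay above the other 18. The log2 fold change was -0.36 ± 0.06 for Treg over Th17, 0.31 ± 0.06 for Th17 over CD8 and 0.40 ± 0.06 for Th17 over Th1, with adjusted p-values of 3.54e-06, 6.95e-05 and 2.17e-06. With length offsets Treg over Th17 was -0.57. Treg over CD8 was -0.05 (adjusted p = 0.418) and Treg over Th1 was 0.04 (adjusted p = 0.559), and with length offsets both were called, at -0.31 (adjusted p = 2.68e-05) and -0.25 (adjusted p = 0.000378).

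Both regulatory subunits were lower in Treg than in each of the other cell types. Prkar2a encodes RII alpha, the subunit type that most anchors prefer. It is listed as ENSMUSG00000032601 on chromosome 9 from 108566513 to 108627635, plus strand, in the table's own coordinates, whose build is not given and differs from that of the promoter windows shown further on. It had 22.2, 30.5 and 36.9 CPM as its lowest, median and highest value in Treg libraries, 77.6, 82.5 and 90.9 in Th17, 82.8, 87.0 and 89.7 in CD8, and 73.2, 76.9 and 79.6 in Th1. Every Treg library lay below every other library. Prkar2a fell in Treg, with log2 fold changes of -1.45 ± 0.08 over Th17, -1.50 ± 0.08 over CD8 and -1.33 ± 0.08 over Th1 (adjusted p = 9.87e-15, 3.56e-15 and 4.22e-14). Among Th17, CD8 and Th1 cells no pair passed the test, with log2 fold changes between -0.05 and 0.18.

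Prkar1a (ENSMUSG00000020612, chromosome 11 from 109540231 to 109560482, plus strand, in the table) encodes RI alpha, a mostly cytosolic regulatory subunit, and was also lowest in Treg, with smaller differences. Its lowest, median and highest values were 281, 337 and 407 CPM in Treg libraries, 529, 602 and 646 in Th17, 540.1, 557 and 652 in CD8, and 519, 539 and 558 in Th1. The Treg libraries again lay below all 18 others. The log2 fold change was -0.82 ± 0.07 for Treg over Th17, -0.75 ± 0.07 over CD8 and -0.67 ± 0.07 over Th1 (adjusted p = 2.86e-11, 1.16e-10 and 1.16e-09). Length offsets left all 6 regulatory subunit values for Treg with the same sign and past the threshold.

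Set side by side per kb of gene length, Prkar1a was the highest of the 4 subunit genes in every cell type. Prkar2a had the lowest mean in Treg, Th17 and Th1, whereas in CD8 Prkar2a and Prkacb lay level, at 13.6 ± 0.45 and 13.5 ± 0.90 CPM per kb (SD, n = 6 each). In Th1 the libraries of these genes overlapped, at 12.02 ± 0.39 for Prkar2a and 12.7 ± 0.72 CPM per kb for Prkacb (SD, n = 6 each). In Treg, Th17, CD8 and Th1 libraries, Prkar1a averaged 78.7, 138, 132 and 124 CPM per kb, and Prkar2a averaged 4.82, 13.1, 13.6 and 12.02 CPM per kb. Prkar1a was 94.2 ± 0.39% of Prkar1a plus Prkar2a in Treg, 91.3 ± 0.43% in Th17, 90.7 ± 0.59% in CD8 and 91.2 ± 0.28% in Th1 libraries (SD, n = 6 each). The level of regulatory over catalytic subunit messenger RNA was 2.14 ± 0.16 in Treg, 3.16 ± 0.13 in Th17, 3.58 ± 0.20 in CD8 and 3.04 ± 0.11 in Th1, and the highest Treg library, at 2.42, lay below the lowest of the other 18, at 2.91. These proportions are given as descriptions with no test, and they concern messenger RNA, not protein.

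**Figure D3:**
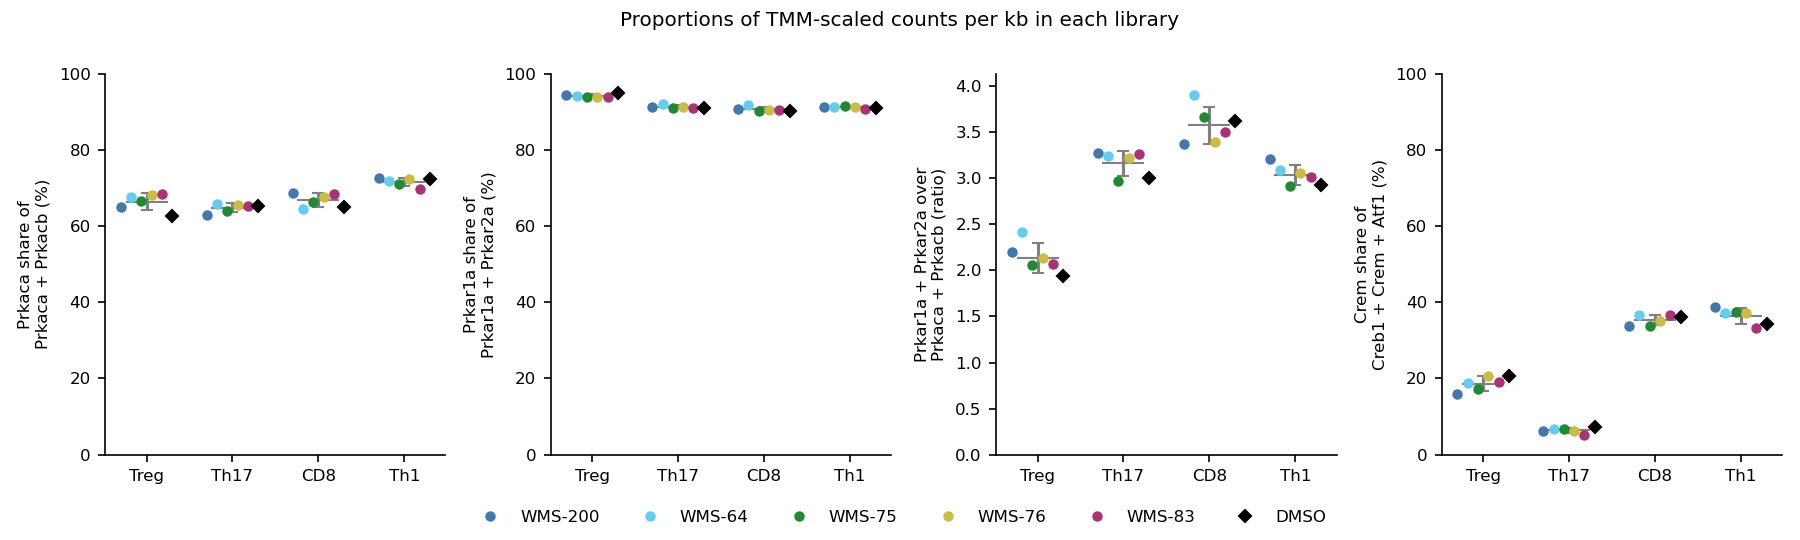
Proportions of TMM-scaled counts per kb in each library, with the mean and SD of the 6 libraries of a cell type in grey and DMSO as black diamonds; the 3 share axes run over the full percentage scale and the ratio axis starts at 0. The regulatory over catalytic ratio is 1.94 to 2.42 in Treg libraries and 2.91 to 3.90 elsewhere, and the Crem share is 5.18 to 7.33% in Th17 libraries.

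The promoters of the subunit genes were looked at because the kinase and its CREB targets form one pathway. The full CRE, TGACGTCA, and its core, TGACG, were searched on both strands in the 250 bases before each RefSeq transcript start (GRCm38.p6). Every full CRE also holds the core. The full element is in 1.55% and the core in 17.8% of 32851 mouse promoters of this length. Crem was not searched. Among the other 9 genes, a full CRE was found for Prkar1a alone, in 1 of its 6 listed promoters. The core was found in 1 of 2 promoters of Prkaca, 1 of 3 of Prkacb, 3 of 6 of Prkar1a and the 1 listed for Atf1. The windows below hold the full element or the core farthest upstream, 5′ to 3′ on the gene's strand, with the match in capitals; CGTCA is the core read on the other strand.
Prkar1a: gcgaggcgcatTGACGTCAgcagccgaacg
Prkaca: gtctgcaactcgCGTCActcatccaggagc
Prkacb: ggggcttgaccgCGTCActtccggcgcgcc
Atf1: gtgaccacgcggTGACGcagcacgccggcg
The Prkar1a window is chr11:109650889-109650918 on the plus strand, with the CRE starting 49 bases before the transcript start; it lies within the Prkar1a gene but in no exon of the GENCODE annotation used. The other windows overlap no annotated gene and are chr8:83972846-83972875 (plus, Prkaca), chr3:146813031-146813060 (minus, Prkacb) and chr15:100227757-100227786 (plus, Atf1). None of these letters is in the windows listed for Prkar2a, Akap1, Akap8, Akap13 or Creb1. A match is a string of letters and not a measured binding site, and no binding was measured here.

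Among the anchors, Akap13 showed the second widest range of the 10 genes. It encodes a large anchor that also activates RhoA as an exchange factor, and the table lists it as ENSMUSG00000066406 on chromosome 7 from 75105282 to 75404357, plus strand. Its lowest, median and highest values were 1381, 1399 and 1844 CPM in Treg libraries, 997, 1142 and 1250.2 in Th17, 364, 381 and 440.4 in CD8, and 257, 289.9 and 315 in Th1. No range overlaps its neighbour, so under TMM scaling the order of the cell types held in every library. Akap13 rose by 2.39 ± 0.08 on the log2 scale in Treg over Th1, by 1.93 ± 0.08 in Treg over CD8, by 1.98 ± 0.08 in Th17 over Th1 and by 1.52 ± 0.08 in Th17 over CD8 (adjusted p between 4.03e-19 and 4.09e-15). CD8 over Th1 was 0.46 ± 0.08 (adjusted p = 7.34e-05).

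Akap13 is also the longest of the 10 genes, at 21024 bases, and the length trend bears on it. With length offsets the log2 fold change was 1.71 in Treg over Th1 and 1.31 in Treg over CD8, both still called. Treg over Th17, which was 0.41 ± 0.08 (adjusted p = 2.84e-05), was -0.04 (adjusted p = 0.534). Within Treg, the WMS-200 library had 1844 CPM and the DMSO library 1613 CPM, against 1381 to 1400.2 CPM in the other 4, and these are also the only Treg libraries with WT number 3.

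Akap8, an anchor found in the nucleus, was highest in Treg. It had 188, 223 and 247 CPM as its lowest, median and highest value in Treg libraries, 143, 162 and 186 in Th17, 158, 167 and 185 in CD8, and 157, 165 and 175 in Th1. The lowest Treg library lay just above the highest of the other 18. Akap8 rose in Treg over Th17 (0.44 ± 0.07), over CD8 (0.38 ± 0.07) and over Th1 (0.41 ± 0.07), with adjusted p-values of 2.21e-06, 1.82e-05 and 6.57e-06. With length offsets Treg over Th17 was 0.24 and still called (adjusted p = 0.00107), and the other two were 0.13 each and not called.

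Akap1 (ENSMUSG00000018428, chromosome 11 from 88721618 to 88755412, minus strand, in the table) tethers the kinase to the outer mitochondrial membrane and was highest in CD8 cells. Its lowest, median and highest values were 30.4, 44.7 and 50.1 CPM in Treg libraries, 33.3, 37.1 and 70.2 in Th17, 64.9, 69.5 and 76.5 in CD8, and 50.2, 53.2 and 57.3 in Th1. The Th17 value of 70.2 CPM is the DMSO library, and the 5 Th17 agonist libraries lie at or below 40.7. Akap1 fell in Treg over CD8 (-0.73 ± 0.13, adjusted p = 1.95e-05) and in Th17 over CD8 (-0.75 ± 0.13, adjusted p = 3.98e-05), and it was higher in CD8 over Th1 (0.40 ± 0.13, adjusted p = 0.0339). It was also lower in Treg over Th1 (-0.33 ± 0.13, adjusted p = 0.0225) and in Th17 over Th1 (-0.35 ± 0.13, adjusted p = 0.0299). Treg over Th1 was called under 6 of 8 alternatives. With single libraries left out, Th17 over Th1 was called in 16 of 24 fits and CD8 over Th1 in 18 of 24. Treg over Th17 was 0.02 (adjusted p = 0.912), but 0.20 (adjusted p = 0.0411) without the Th17 DMSO library and -0.46 (adjusted p = 6.55e-05) with WT number as a block. The Th17 over CD8 difference was not called with that block (-0.12, adjusted p = 0.400). WT number 1 occurs in Th17 libraries only, so both block values take the Th17 level from the DMSO and WMS-83 libraries (70.2 and 40.7 CPM).

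The CREB family genes behaved unequally. Crem, which encodes activators and the short repressor ICER, had 31.6, 41.2 and 50.1 CPM as its lowest, median and highest value in Treg libraries. It had 16.1, 18.9 and 19.9 CPM in Th17, 127, 139.9 and 146 in CD8, and 133, 147 and 158 in Th1. Th17 libraries lay lowest, Treg libraries next, and CD8 and Th1 libraries overlapped each other far above both. Crem fell in Treg over CD8 (-1.74 ± 0.07) and over Th1 (-1.83 ± 0.08), and further in Th17 over CD8 (-2.88 ± 0.08) and over Th1 (-2.97 ± 0.08) (adjusted p between 7.77e-21 and 5.71e-17). It rose by 1.14 ± 0.08 in Treg over Th17 (adjusted p = 8.40e-13). CD8 over Th1 was -0.09 (adjusted p = 0.507). A count per gene cannot separate the repressor from the activator forms.

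Atf1, a constitutive CREB relative, was lower in Treg than elsewhere. Its lowest, median and highest values were 51.9, 65.5 and 81.2 CPM in Treg libraries, 101, 117 and 126 in Th17, 101, 106 and 108 in CD8, and 102, 109 and 112 in Th1. The Treg libraries did not overlap the others. The log2 fold changes of Treg were -0.80 ± 0.08 over Th17, -0.67 ± 0.08 over CD8 and -0.71 ± 0.08 over Th1 (adjusted p = 8.88e-10, 2.32e-08 and 7.44e-09). No pair of Th17, CD8 and Th1 passed the test.

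Creb1, the founding member of the family, was close to level. Its lowest, median and highest values were 114, 121 and 139.8 CPM in Treg libraries, 112, 124 and 128 in Th17, 106, 115 and 123 in CD8, and 101, 111 and 125 in Th1. All 4 ranges overlap. Treg over Th1 (0.15 ± 0.06, adjusted p = 0.0205) and Th17 over Th1 (0.15 ± 0.06, adjusted p = 0.0389) passed the test. Treg over Th17 (0.004, adjusted p = 0.954) and Treg over CD8 (0.12, adjusted p = 0.0758) did not. With length offsets Creb1 was lower in Treg, by -0.34 over Th17, -0.33 over CD8 and -0.34 over Th1, each called. Th17 over Th1 was then 0.003. The called direction of Creb1 in Treg over Th1 thus differed between TMM scaling and length offsets.

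Per kb of gene length, Crem was 18.7 ± 1.89% of the sum of Creb1, Crem and Atf1 in Treg, 6.38 ± 0.73% in Th17, 35.4 ± 1.34% in CD8 and 36.3 ± 2.13% in Th1 libraries (SD, n = 6 each). In this share DMSO lay above every agonist library in Treg (20.7%, against 15.9 to 20.5%) and in Th17 (7.33%, against 5.18 to 6.76%). It lay inside the agonist range in CD8 (36.2%, against 33.9 to 36.8%) and in Th1 (34.2%, against 33.2 to 38.7%). The level of Crem itself with DMSO lay inside the agonist range in Treg (39.2 CPM, against 31.6 to 50.1) and in Th17 (19.3 CPM, against 16.1 to 19.9). Its log2 fold changes with agonists there were 0.09 and -0.06, neither called.

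**Figure D4:**
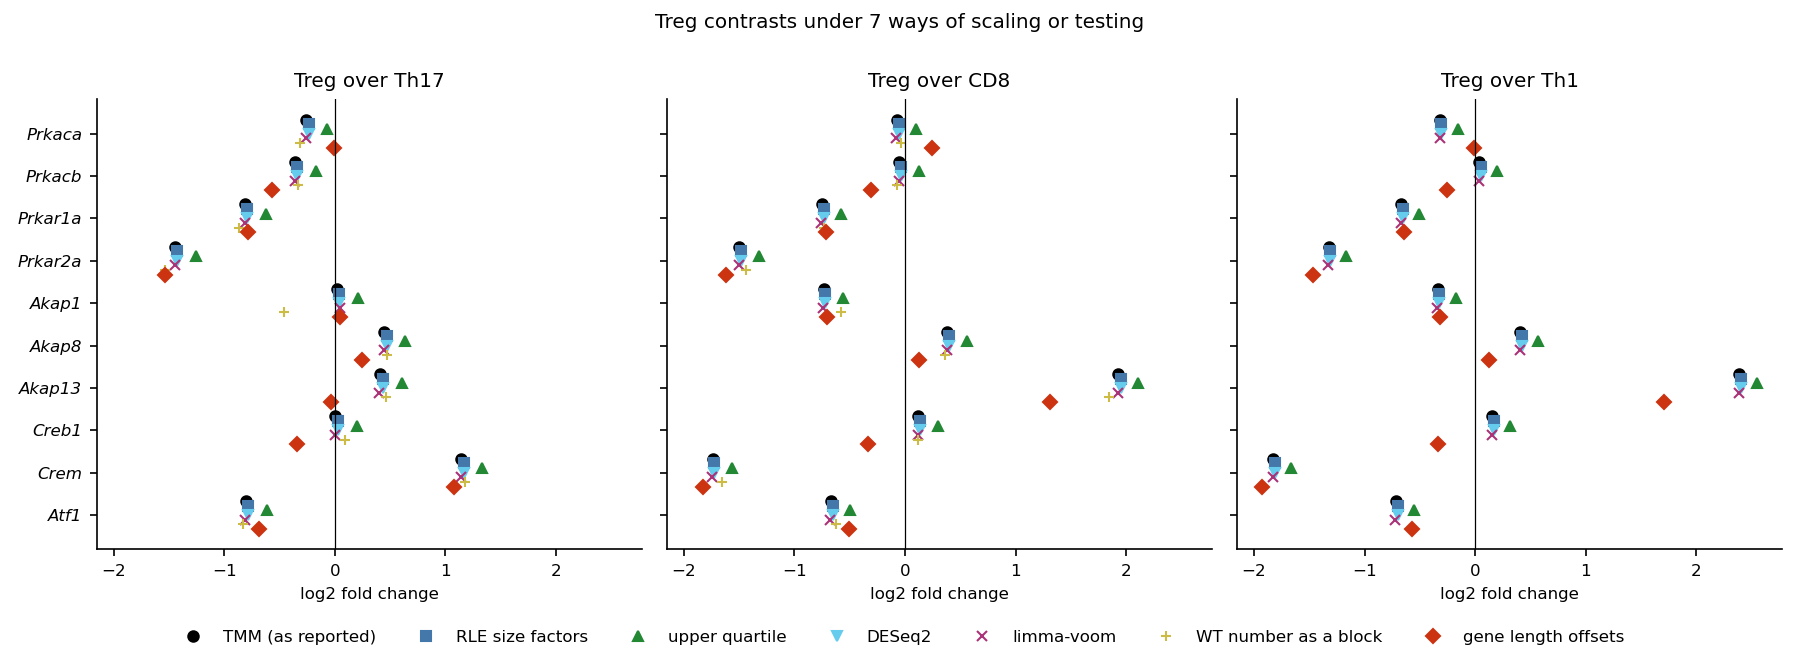
Log2 fold changes of Treg over Th17, CD8 and Th1 under 7 ways of scaling or testing. WT number as a block has no point for Treg over Th1, because number 4 occurs in Th1 only. Its Treg over Th17 points take the Th17 level from the DMSO and WMS-83 libraries, because number 1 occurs in Th17 only. Gene length offsets (red diamonds) move Creb1 below 0 in all 3 panels and Akap13 to -0.04 against Th17, while Prkar1a, Prkar2a, Crem and Atf1 keep their side of 0 under all 7.

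For the 3 genes with at least a 2-fold range, the genes with the most alike profile over the 24 libraries were found by Pearson correlation of log2 CPM among 8991 protein-coding genes. The closest to Prkar2a were Lrrc59 (r = 0.994), Cpsf2 (0.992) and Umps (0.992). The closest to Akap13 were Nin (0.994), Nt5e (0.989) and Arntl (0.988). The closest to Crem were Plxnc1 (0.993), Tbx21 (0.992) and Smox (0.987). The 24 libraries fall into 4 cell types, so these values describe a shared order of cell types.

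The rest of the pathway was read from lists of other genes. With 74.9% to 78% of all genes called in the comparisons of Treg, counts of calls in lists this small are no result about a list. Of 5 measured genes for other kinase subunits and inhibitor peptides, 1 was higher and 2 lower in Treg over Th17, beside 38.3% and 36.5% of all genes. Pkib, an inhibitor of the catalytic subunit, was higher, with a log2 fold change of 2.60 (1.75 CPM in Treg and 0.32 CPM in Th17), and Prkx, a related kinase, was lower, with -0.80 (33.2 CPM in Treg and 57.7 CPM in Th17). The Pkib value over Th17 was 1.30 and not called with WT number as a block (adjusted p = 0.0945). Pkib was also higher over CD8 (1.01) and over Th1 (1.09), but neither was called with length offsets, and over CD8 the call was also lost with that block, with limma-voom and in a fit of the 2 cell types alone.

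Of 9 other measured anchors, 5 were higher and 2 lower in Treg over Th17 (38.3% and 36.5% of all genes), 6 higher and 1 lower over CD8 (40.2% and 37.8%), and 6 higher and 1 lower over Th1 (40.1% and 37.3%). Their median log2 fold changes were 0.76, 0.42 and 0.58, beside 0.09, 0.08 and 0.09 over all genes. Akap12, Akap7 and Akap8l had the largest values over Th1, at 1.97, 1.48 and 1.33. Akap8l, the neighbour and relative of Akap8, averaged 152 ± 27.8 CPM in Treg and 60.2 ± 5.74 CPM in Th1 libraries (SD, n = 6 each). The one anchor lower over CD8 and over Th1 was Ezr, the gene of ezrin. With length offsets 4 rather than 6 were higher over CD8.

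Of 8 coactivators of CREB and kinases that act on them, 6 were higher and 1 lower in Treg over Th17 and over CD8, and 7 higher and 1 lower over Th1, beside 38.3%, 40.2% and 40.1% of all genes higher and 36.5%, 37.8% and 37.3% lower. With length offsets 4, 5 and 4 were higher, and Ep300 in Treg over Th1 was -0.14 (adjusted p = 0.0322) in place of 0.37. Ep300 in Treg over CD8 was then -0.10 in place of 0.37, and Crtc3 in Treg over Th1 was -0.01 in place of 0.33, neither called. Sik2, a kinase that keeps CRTC coactivators out of the nucleus, rose in Treg over Th1 (1.63), whereas its relative Sik3 fell (-0.90). Crtc3 had 86.9 ± 7.02 CPM in Treg, 185 ± 10.2 in Th17, 63.0 ± 4.05 in CD8 and 69.2 ± 1.55 in Th1 libraries (SD, n = 6 each). It was thus highest in Th17, with a log2 fold change of -1.09 for Treg over Th17 and 1.55 for Th17 over CD8.

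Of 8 other CREB and ATF relatives, 2 were higher and 2 lower in Treg over Th17 (38.3% and 36.5% of all genes), 4 higher and 2 lower over CD8 (40.2% and 37.8%), and 4 higher and 2 lower over Th1 (40.1% and 37.3%). The 2 lower over CD8 each changed sign with scaling and were then not called. Creb3 was 0.09 with length offsets in place of -0.27, and Atf2 was 0.01 with upper-quartile scaling in place of -0.17. Crebl2 had the largest rise, 1.93 in Treg over Th1, with 99.9 ± 13.1 CPM in Treg and 26.2 ± 3.07 CPM in Th1 libraries (SD, n = 6 each). Creb3l2, a membrane-bound relative, was highest in Th17 (64.4 ± 4.11 CPM, SD, n = 6), with 1.40 for Th17 over CD8.

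Of 14 measured genes known as CREB targets, 3 were higher and 6 lower in Th17 over Th1, beside 23.2% and 24.1% of all genes. Nr4a2, an orphan nuclear receptor gene, fell (-2.42), as did Sik1 (-1.26) and Pde4b (-1.25). In Treg over Th17, 8 were higher and 4 lower (38.3% and 36.5% of all genes), the widest being Areg (-1.67, and -0.86 with length offsets), Sik1 (1.53), which is also in the coactivator list, and Nr4a2 (1.52). With length offsets 9 were higher and 3 lower there, Ddit4 being 0.31 in place of -0.25. In Treg over CD8, 4 were higher and 6 lower (40.2% and 37.8%), the widest being Nr4a2 (-1.66), Fos (-1.49) and Dusp1 (1.39), and the median of the 14 was -0.16, beside 0.08 over all genes. In Treg over Th1, 7 were higher and 5 lower (40.1% and 37.3%). Most of these genes also respond to other signals of T cell activation.

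Of 4 other measured cAMP effectors, 3 were higher in Treg over Th17 and over Th1, and 2 over CD8, beside 38.3%, 40.1% and 40.2% of all genes. Rapgef4 and Rapgef3 encode EPAC proteins, which cAMP activates without the kinase. Rapgef4 averaged 19.1 ± 6.53 CPM in Treg, 4.22 ± 0.51 in Th17, 4.86 ± 0.80 in CD8 and 2.48 ± 0.30 in Th1 libraries (SD, n = 6 each), a log2 fold change of 2.92 for Treg over Th1.

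None of the 10 genes passed the test for the agonists as a group against DMSO. With cell type as a term, 20 agonist libraries were compared with 4 DMSO libraries, and 0 of the 10 were called, beside 0% of all genes. At an unadjusted p under 0.05 the count was also 0 of the 10, against 3.17% of all genes; DESeq2 and limma-voom likewise called 0 of the 10. The log2 fold changes ran from -0.21 (Akap1) to 0.13 (Atf1), and all 10 intervals at 95% lay within 0.5 of zero on the log2 scale, with outermost bounds of -0.46 and 0.28. With single libraries left out, the Akap1 value ran from -0.34 to 0.09.

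Single agonists, each with 4 libraries against the 4 DMSO libraries, gave 0 calls among the 10 genes in each of the 5 comparisons, beside 0% of all genes in each. At an unadjusted p under 0.05, 1 of the 10 passed with WMS-200 and 1 with WMS-64, and 0 with the other 3, beside 6.43% of all genes with WMS-64, 3.9% with WMS-83, 3.45% with WMS-75, 3.07% with WMS-76 and 1.55% with WMS-200. DESeq2 and limma-voom called 0 of the 10 in these comparisons too. The intervals past 0.5 were 3, all of Akap1, with log2 fold changes of -0.39 for WMS-200, -0.20 for WMS-76 and -0.20 for WMS-83. All of these include the Th17 DMSO library, where Akap1 had 70.2 CPM, against 33.3 to 40.7 CPM in the Th17 agonist libraries. The smallest unadjusted p was 0.0109, for Prkar1a with WMS-64 (0.22, adjusted p = 0.752). The 5 comparisons share their DMSO libraries.

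The 5 agonists were also compared with each other at the same dose, in 10 pairs, each adjusted over all genes. None of the 10 genes was called in any pair, beside 0% of all genes in 9 pairs and 0.0063% in WMS-200 over WMS-76. The widest differences among the 10 genes were -0.28 for Akap1 in WMS-200 over WMS-64, with a lower bound of -0.61, and 0.20 for Prkar1a in WMS-64 over WMS-75, with an upper bound of 0.36. DESeq2 and limma-voom also called 0. At an unadjusted p under 0.05, 1 of the 10 passed in WMS-200 over WMS-64, beside 4% of all genes. In WMS-64 over WMS-75 it was 1 of the 10, beside 8.7% of all genes. In the 6 pairs without WMS-200, all 10 intervals lay within 0.5 of zero; in each of the 4 pairs with it, 9 did, Akap1 being the exception. A p that misses the threshold does not show that the agonists act alike, and these intervals give the sizes that remain possible.

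**Figure D5:**
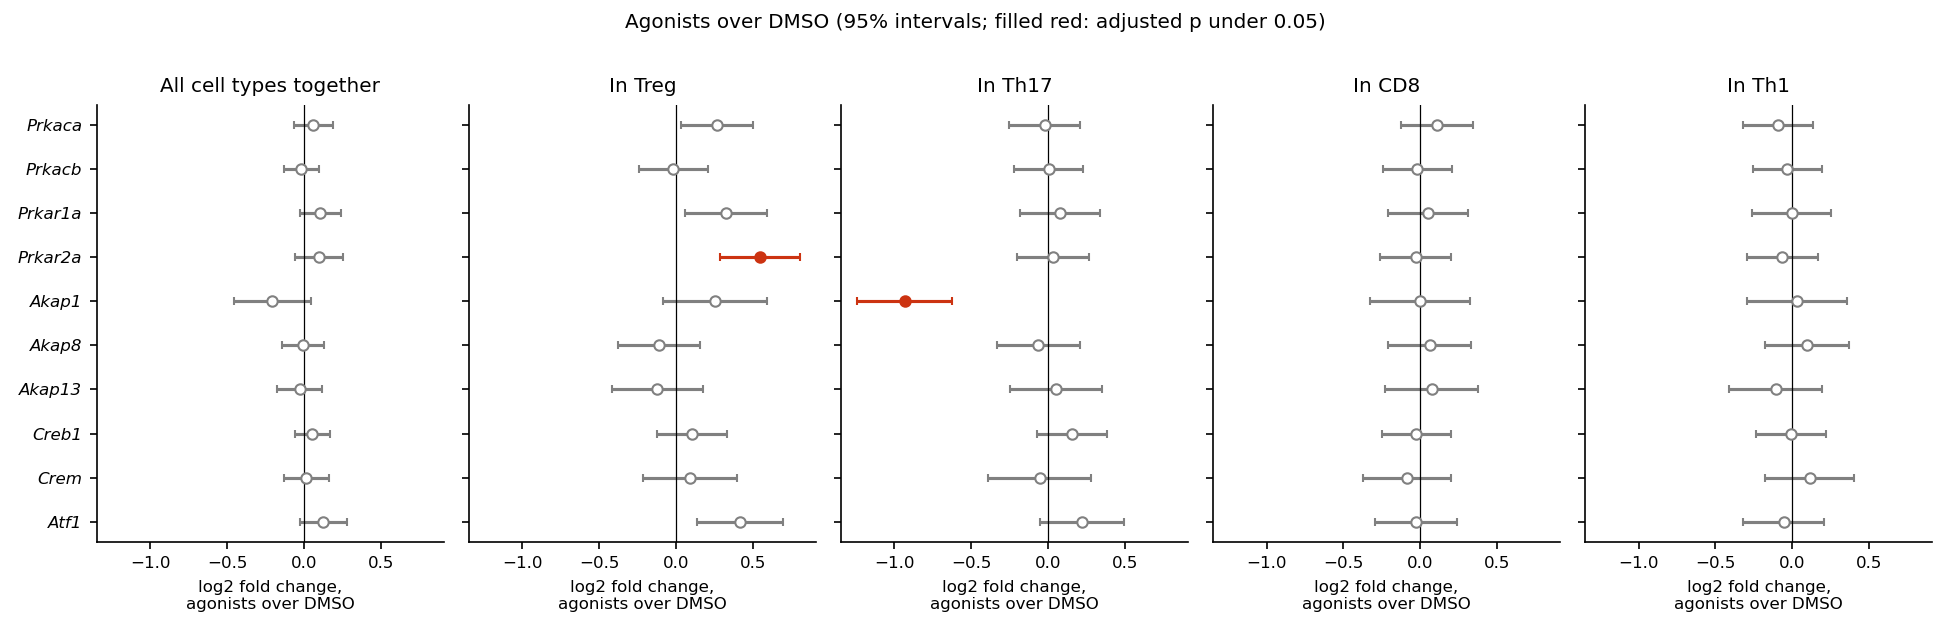
Log2 fold change of each gene in agonists over DMSO, for all cell types together and in each cell type, with 95% intervals; filled red points passed an adjusted p of 0.05. Prkar2a in Treg at 0.55 and Akap1 in Th17 at -0.93 are the filled points, and each rests on 1 DMSO library.

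Within a cell type, 5 agonist libraries stand against 1 DMSO library, which is assumed to vary like the others. In CD8 and Th1 cells 0 of the 10 genes were called, beside 0.0063% and 0% of all genes. At an unadjusted p under 0.05 the count was 0 of the 10 in both, against 2.01% and 3.25% of all genes. All 10 log2 fold changes lay between -0.08 and 0.11 in CD8 and between -0.11 and 0.11 in Th1, and these are the cell types in which WT number is constant.

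In Treg, 1 of the 10 genes was called, beside 8.82% of all genes (7.64% higher and 1.18% lower). Prkar2a had 30.3 CPM with WMS-200, 36.9 with WMS-64, 30.7 with WMS-75, 29.4 with WMS-76 and 34.9 with WMS-83, against 22.2 CPM with DMSO. All 5 agonist libraries lay above DMSO, and all 6 stayed below every library of the other cell types. The summed Treg markers were at 2463 to 2679 CPM with agonists, against 2130 CPM with DMSO, and the summed Th17 markers at 112 to 256 CPM, against 93.6 CPM; their part in the result was not tested. The log2 fold change was 0.55 ± 0.13 (adjusted p = 0.00856). With WT number as a block it was 0.45 and not called (adjusted p = 0.245), since only the WMS-200 library shares its number with DMSO.

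Atf1 in Treg had 59.9 CPM with WMS-200, 81.2 with WMS-64, 76.6 with WMS-75, 56.6 with WMS-76 and 71.2 with WMS-83, against 51.9 CPM with DMSO (0.41 ± 0.14, adjusted p = 0.0563). It passed the threshold with no filter on low counts (adjusted p = 0.0253) and when the Treg WMS-200 library (adjusted p = 0.0157), the Treg WMS-76 library (0.0204) or the Th17 WMS-75 library (0.0494) was left out, and not under the other 7 alternatives or without any other single library that could be left out. Prkar1a and Prkaca were also lowest with DMSO, at 281 and 55.2 CPM, against 309 to 407 and 60.3 to 74.7 CPM with agonists, and were not called (adjusted p = 0.122 and 0.159). The same DMSO library had the lowest ribosomal protein share of the Treg libraries, 1.60%, and the part of composition in these values was not tested. Of all genes called in this comparison, 86.6% were higher with agonists under TMM scaling, 76.2% under RLE size factors, 65.9% under upper-quartile scaling and 67.9% with length offsets.

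In Th17, 1 of the 10 genes was called, beside 0.0378% of all genes. Akap1 had 35.7 CPM with WMS-200, 36.6 with WMS-64, 37.5 with WMS-75, 33.3 with WMS-76 and 40.7 with WMS-83, against 70.2 CPM with DMSO. The DMSO library lay at the CD8 level and the 5 agonist libraries lay together far below it. The 5 CD8 markers summed to 178 to 348 CPM in the Th17 agonist libraries, against 444 CPM in the Th17 DMSO library, and to 2600 to 2812 CPM in CD8 libraries; their part in the Akap1 value was not tested. Akap1 fell by 0.93 ± 0.15 on the log2 scale (adjusted p = 0.00831). That DMSO library is the only Th17 library with WT number 2, so the agonists and the WT number cannot be told apart here. With the number as a block, the log2 fold change was -0.17, which cannot decide between them. Number 1 occurs in Th17 agonist libraries only, so that fit compares WMS-83 alone with DMSO. Its term for number 3 comes from Treg, where Akap1 had 30.4 CPM with WMS-200, against 44.3 to 50.1 CPM with the other agonists.

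The difference of the agonist effect between cell types was tested directly. It was called for Akap1 alone among the 10 genes (adjusted p = 0.0379), beside 0.176% of all genes. Akap1 with agonists over DMSO was 0.25 in Treg, -0.93 in Th17, -0.001 in CD8 and 0.03 in Th1. The Treg value was not called, but was 0.35 and called (adjusted p = 0.0485) when the Treg WMS-200 library was left out. Prkar2a did not pass this test (adjusted p = 0.150), so its rise in Treg is not shown to differ from the other cell types. The Akap1 call was lost under RLE size factors, limma-voom, the stricter count filter and WT number as a block.

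Of the 14 known CREB target genes, 5 were higher and 0 lower with agonists in Treg, beside 7.64% and 1.18% of all genes, and 0 were called in Th17, CD8 or Th1. At an unadjusted p under 0.05 the counts were 8 in Treg, 3 in Th17 and 0 in CD8 and in Th1. The share of all genes at that threshold was 2.01% in CD8 and 3.25% in Th1, and was not counted for Treg or Th17. Without that share, the 8 and the 3 are no result about the targets. DESeq2 and limma-voom each called 1 in Th17. Nr4a2 had 39.2 CPM with WMS-200, 50.3 with WMS-64, 66.2 with WMS-75, 62.1 with WMS-76 and 58.2 with WMS-83, against 32.0 CPM with DMSO (0.78 ± 0.20, adjusted p = 0.0155). The WMS-200 library, which shares the WT number of DMSO, was the closest to it. Dusp1, a phosphatase gene of the MAP kinase pathway, had 49.2 to 61.4 CPM with agonists, against 39.0 CPM with DMSO (0.56 ± 0.15, adjusted p = 0.0184). Egr1 had 130.2 to 195 CPM with agonists, against 116 CPM with DMSO (0.49 ± 0.15, adjusted p = 0.0333). The other two, Nr4a1 (0.44) and Nr4a3 (0.40), are named after their values were seen. Fos, Fosb, Pde4b and Pde4d stood highest with DMSO and were not called. With WT number as a block 0 of the 14 were called, with length offsets 1 was higher, under RLE size factors 2 were higher and 1 lower, and under upper-quartile scaling 1 was higher and 2 were lower. In the test of a difference between cell types 0 of the 14 were called, beside 0.176% of all genes. DESeq2 called 1 there and limma-voom 0. At an unadjusted p under 0.05 there were 6, but the share of all genes was not counted, so the 6 are no result about the targets.

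Rapgef4 went the other way in Treg. It had 20.9 CPM with WMS-200, 16.4 with WMS-64, 17.0 with WMS-75, 15.5 with WMS-76 and 13.5 with WMS-83, against 31.5 CPM with DMSO. Every agonist library lay below DMSO, and the log2 fold change was -0.92 ± 0.22 (adjusted p = 0.0115). With WT number as a block it was -0.59 (adjusted p = 0.443). Of the other kinase subunit, anchor, coactivator and CREB relative lists, 0 genes were called with agonists in any of the 4 cell types by edgeR, DESeq2 or limma-voom. At an unadjusted p under 0.05 there was 1 CREB relative each in Treg, Th17 and CD8, beside 2.01% of all genes in CD8. That share was not counted for Treg or Th17.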

How the data were processed

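Bulk poly(A) RNA-seq of 24 libraries was used. The deposited table holds whole-number counts of reads per gene; per the submitters' processing notes the authors used fastp, HISAT2 and featureCounts. Their versions, the genome build, the annotation and the strand setting are not given in the sources used, so reads of overlapping or antisense genes may be shared. Library totals were 15188284 to 21946887 counts.

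Counts were kept at a minimum count of 10 by cell type (edgeR filterByExpr; 15885 of 56748 genes), TMM-scaled and fitted with edgeR 4.0.16 (R 4.3.3) quasi-likelihood models over all 24 libraries. An additive model of cell type and treatment (biological coefficient of variation 0.133, 15 residual degrees of freedom) gave the cell type and compound contrasts, and a model of 8 groups (16 residual degrees of freedom) the agonist effects within cell types. P-values were Benjamini-Hochberg adjusted over all genes tested, with a threshold of 0.05. Levels are TMM-scaled CPM; log2 CPM used a prior count of 2. Levels between genes are compared per kb of the table's gene length. Intervals are at 95%.

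Alternatives were RLE and upper-quartile scaling, DESeq2 1.42.0, limma-voom (limma 3.58.1), no filter, a minimum count of 50, WT number as a block, offsets from a spline of log2 CPM on gene length with 5 degrees of freedom, fits of the 2 cell types compared, and leaving out each library. Promoter sequences are RefSeq's, GRCm38.p6. All 10 genes are named; from each other list at most 3 genes per comparison are named, those with the largest called change. Atf2, Creb3, Crtc3, Ddit4, Ep300, Ezr, Nr4a1, Nr4a3, Fos, Fosb, Pde4b and Pde4d in the sentences on scaling and on agonists are named beyond this rule, after their values were seen. The 10 genes and all lists were chosen with earlier results of these data known.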

Additional observations from a re-analysis of the deposited data

Results flagged for a closer look

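In 5 of 40 groups (10 genes in 4 cell types, 6 libraries each), 1 library stood apart from the other 5 by its gap relative to the group's range (Dixon's criterion); chance gives about 1 in 20. Akap1 in the Th17 DMSO library was at 70.2 CPM, with the other Th17 libraries at or below 40.7 CPM. Creb1 in the same library was at 112 CPM, below the 5 agonist libraries at 122 to 128 CPM. Prkacb in the Th17 WMS-76 library was at 153.5 CPM, Prkar1a in the CD8 WMS-64 library was at 652 CPM and Crem in the Th17 WMS-83 library was at 16.1 CPM. The agonist effect on Akap1 differed between the 4 cell types by a test of the difference itself (adjusted p = 0.0379). The Th17 DMSO library, on which that call rests, is the only Th17 library with its WT number, so treatment and WT number cannot be told apart there.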

How the results depend on the processing

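No paired analysis was possible because the labels give no replicate numbers and no combination is repeated. WT number as a block stood in for it, and it could not be fitted for pairs with Th1. Number 1 occurs in Th17 libraries only, so with that block the Th17 level rests on the DMSO and WMS-83 libraries. Within Th17 the agonists are then represented by WMS-83 alone. All counts of members called for pairs of cell types stayed within 1.5 times under every planned setting except when single libraries were left out, where Th17 over Th1 gave 3 to 6. The count for agonists in Treg was 2 with no filter and 0 with WT number as a block, and 1 to 3 when single libraries were left out. In Th17 it was 0 with WT number as a block. The count for the agonist effect between cell types was 0 under RLE size factors, limma-voom, a minimum count of 50 and WT number as a block, and 0 to 2 when single libraries were left out. CREB targets called in Treg numbered 3 under RLE size factors, 3 under upper-quartile scaling, 8 with DESeq2, 0 with WT number as a block, 1 with length offsets and 3 to 8 when single libraries were left out. Signs turned with length offsets for Creb1 in Treg over Th17 (-0.34), over CD8 (-0.33) and over Th1 (-0.34), Akap13 in Treg over Th17 (-0.038), Prkaca in Treg over CD8 (0.25) and Prkacb in Treg over Th1 (-0.25), with upper-quartile scaling for Prkacb in Treg over CD8 (0.13), and with WT number as a block for Akap1 in Treg over Th17 (-0.46); the cause was not tested. Upper-quartile scaling put the median of all genes at 0.28, 0.26 and 0.25 in Treg over Th17, CD8 and Th1, against 0.09, 0.08 and 0.09 under TMM. Pairs of single compounds were not refitted with libraries left out. Agonist effects within a cell type rest on a single DMSO library each.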
